A study of Danio rerio with 15 samples.

Results

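Some transcripts of zebrafish larvae were lower at tefluthrin 60 nM than in untreated larvae and stood at the untreated level again at tefluthrin 2.3 µM. The 200 transcripts described here were chosen for that shape, out of 64995 in the files and 21417 with a control mean between 50 and 10000 scaled counts. A scaled count is an estimated count divided by the size factor of its library, the median ratio to the mean library. A transcript was a candidate if its 60 nM mean lay at least 0.4 below the control mean on the log2(mean + 5) scale, if its 2.3 µM mean lay within 0.15 of control on that scale, and if the highest 60 nM library was below every control and every 2.3 µM library. Of 222 transcripts that met every criterion, the 200 with the largest difference between control and 60 nM are the members. The control, 60 nM and 2.3 µM libraries chose the members, so that their values in these groups, and the counts of members called between them by a model of all transcripts, are given as a description and support nothing.

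RNA was measured by poly(A) sequencing in pools of whole wild-type larvae of the NHGRI-1 strain, collected at 72 h post fertilisation. The 15 libraries form 5 groups of 3. Larvae of one group were left untreated and serve as control, and those of the others were kept from 48 to 72 h with tefluthrin at 60 nM or 2.3 µM, or with acetochlor at 780 nM or 7.8 µM. No vehicle is named for the control, no number of larvae per pool is given, and nothing states that the pools came from separate clutches, so that p-values measure the spread between these pools, which may be partly technical. Library totals ran from 17354405 to 25191374 counts. The 60 nM libraries, at 17354405 to 18743266, were shallower than the controls, at 19886430 to 24576528. So were the 2.3 µM libraries, at 18246025 to 18940850. The part of depth in the results below was not tested.

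Tefluthrin is a pyrethroid insecticide. Pyrethroids hold voltage-gated sodium channels of nerve and muscle open after a depolarisation, which gives repetitive firing. Acetochlor is a chloroacetanilide herbicide, which in plants blocks the elongation of very-long-chain fatty acids. A response that appears at a low dose and is absent at a higher one is called non-monotonic, and the members have that shape by construction. The files name each transcript by its Ensembl identifier without a gene, and 0 of the 64995 identifiers matched the gene tables used for names. No gene, pathway, cell type or sequence is therefore given to any member, and the whole-larva label could not be set against tissue markers. In whole larvae, fewer cells of a type and less RNA per cell cannot be told apart.

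Of the successive steps of the rule, the return at 2.3 µM removed the largest share of the transcripts that reached it. Among the 21417 transcripts in range, 3511 were lower at 60 nM by at least 0.4, and 379 of these lay within 0.15 of control at 2.3 µM. Most of the 3511 were lower than control at 2.3 µM as well, 2871 by more than 0.15 and 2311 by at least 0.4. Another 261 were higher than control by more than 0.15. Both differences use the same 3 controls. The demand that the libraries not overlap reduced the 379 to 264 for control and to 222 for both groups. Turned to transcripts that were higher at 60 nM and level with control at 2.3 µM, the same rule kept 232, close to the 222 that were lower. With the concentrations exchanged it kept 890 transcripts lower at 2.3 µM and level at 60 nM. With the acetochlor groups in place of the tefluthrin groups it kept 18 transcripts lower at 780 nM alone and 58 lower at 7.8 µM alone. The plot of both tefluthrin differences shows the members as a narrow band at the left.

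**Figure D1:**
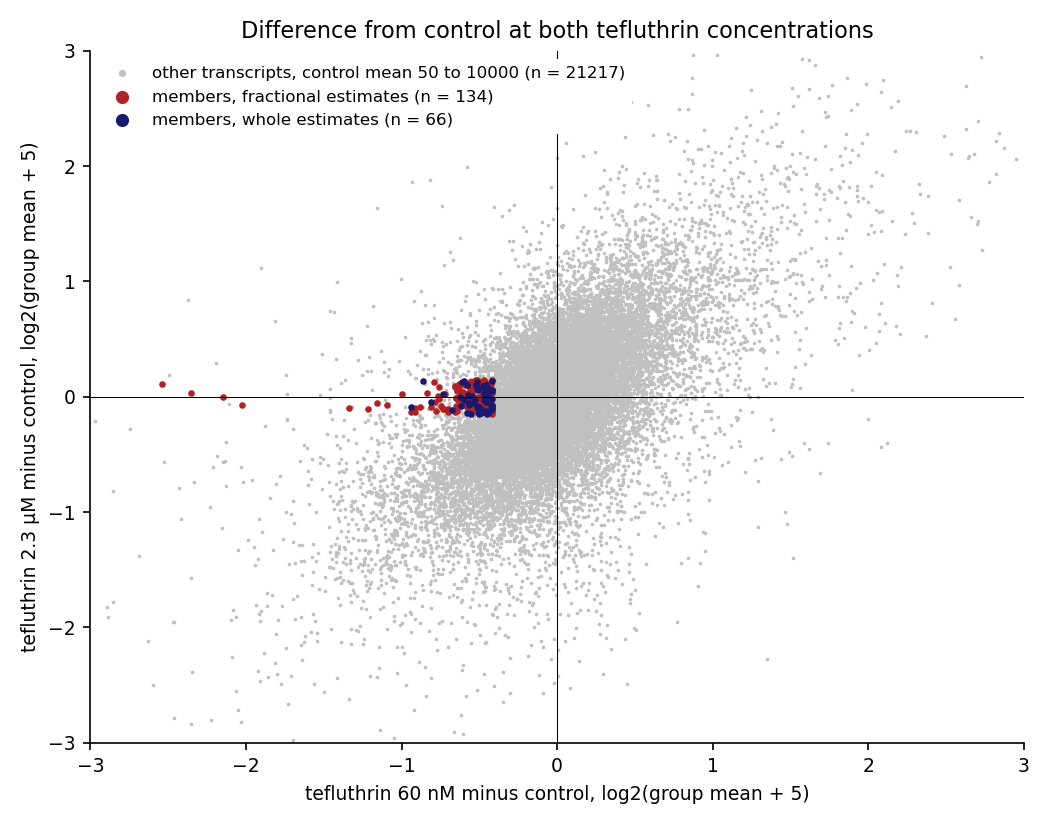
Difference from control on the log2(group mean + 5) scale at tefluthrin 60 nM (x axis) and 2.3 µM (y axis) for each transcript with a control mean of 50 to 10000 scaled counts; 175 points lie outside the axes. Grey points are the other transcripts, red and blue points the 134 members with fractional and the 66 with whole estimates. The members lie left of -0.4 and within 0.15 of 0 on the y axis, as the rule requires; both axes share the control libraries.

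The lowering was modest for most members. The difference between control and 60 nM ran from 0.42 to 2.54 on the log2 scale, with a median of 0.51, and 114 of 200 members reached 0.5, 56 reached 0.6, 8 reached 1 and 4 reached 2. The 60 nM mean was 69.3% of the control mean at the median, and between 64.3% and 72.1% for the middle part of the members from the lower to the upper quartile. The highest 60 nM library stood at 87.6% of the lowest control or 2.3 µM library at the median. In 124 members it was under 90% of that library, and in 30 it was at 95% or above, so that the groups of these 30 were separated narrowly.

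The members together took a smaller part of the RNA at 60 nM, as their choice implies. Their summed share of all counts was 5662, 5639 and 5259 per 1000000 in the control libraries, 3647, 4001 and 3850 at tefluthrin 60 nM and 5009, 4951 and 4826 at tefluthrin 2.3 µM. It was 5176, 5113 and 5877 at acetochlor 780 nM and 5231, 4966 and 5672 at acetochlor 7.8 µM. By this share of counts, which uses no scaling other than the library total, the 3 libraries at 60 nM were lowest of all 15 and the 2.3 µM libraries lay below the 3 controls without overlap. The level called unchanged at 2.3 µM thus depended on the scaling. Scaled by library totals alone, the rule kept 133 transcripts, and 80 of its choice were among the 200 members.

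**Figure D2:**
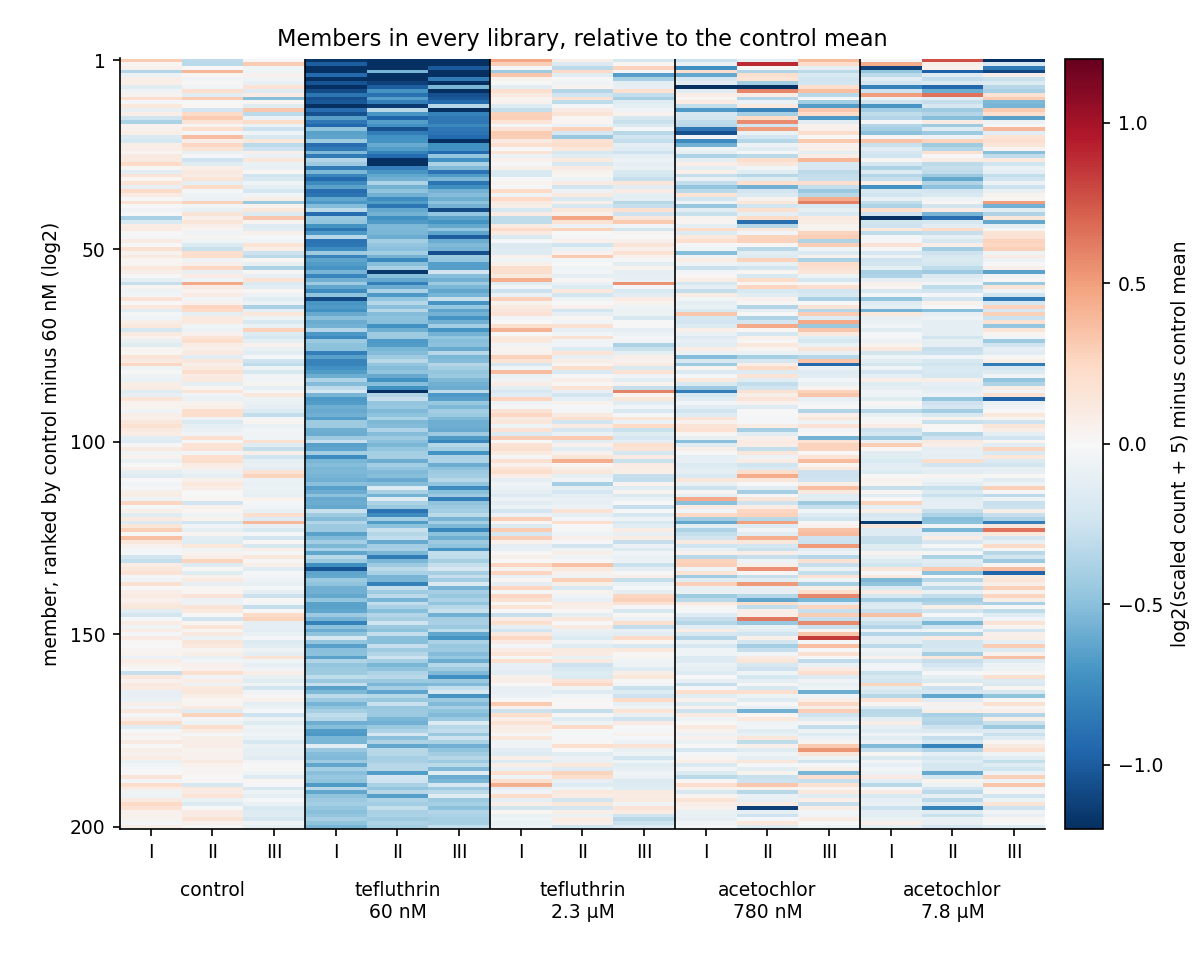
Each row is 1 of the 200 members, ranked by the difference between control and 60 nM, and each column 1 library (replicates I to III of each group); the colour is log2(scaled count + 5) minus the mean of the 3 controls, and colours saturate at 1.2. The 60 nM columns are blue in every row, the 2.3 µM columns are pale, and the acetochlor columns mix pale, blue and red rows.

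On the scaled counts, the median member stood at -0.58, -0.50 and -0.51 relative to the control mean (log2) in the 60 nM libraries, and at 0.04, -0.02 and -0.07 in the 2.3 µM libraries. The controls themselves lay at 0.04, 0.04 and -0.07. Replicate I was the lowest of the 60 nM libraries in 98 members, replicate II in 49 and replicate III in 53. The lowest of the control and 2.3 µM libraries was control replicate III in 58 members and 2.3 µM replicate III in 54, against 14 to 31 members for each of the other 4.

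The 4 members with the largest differences had control means below the median of the members, and reads were divided between transcripts to give their estimates. ENSDART00000185970.1 had 155, 99.4 and 125 scaled counts in control, 52.8, 0 and 0 at 60 nM and 174, 130.0 and 107 at 2.3 µM. The 60 nM libraries were far apart from each other, and this transcript was also at 0 in acetochlor 7.8 µM replicate III, with 122 and 216 in the other libraries of that group. ENSDART00000158832.2 had 104, 80.7 and 128 scaled counts in control and 49.2, 0 and 0 at 60 nM, and its 2.3 µM libraries were at 126, 90.4 and 104. ENSDART00000147310.2 was at 52.2, 50.4 and 48.3 in control, at 0, 0 and 22.5 at 60 nM and at 49.6, 39.3 and 61.8 at 2.3 µM. Its acetochlor 7.8 µM libraries, at 20.5, 52.1 and 25.9, spanned the range from the 60 nM level to the control level. ENSDART00000146580.3 had 97.0, 166 and 121 scaled counts in control, 0, 83.0 and 0 at 60 nM and 91.7, 148 and 124 at 2.3 µM.

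These are the 4 members with a log2 difference above 2, and they are also the only members at 0 in any 60 nM library. A count of 0 allows up to 3 counts (counting error only), which is 3.11 to 3.31 scaled counts in these libraries. Among all transcripts in range, 2.32% were at 0 in at least 1 library at 60 nM, against 2% of the members. In each of the 4, 1 of the 3 libraries at 60 nM held all the counts, and the estimates were fractional in at least 1 library. In the model of all transcripts described below, edgeR called none of the 4 lower at 60 nM than in control. Their edgeR adjusted p-values there were 0.177, 0.0743, 0.0908 and 0.178, in the order given.

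Below these 4, the replicates at 60 nM lay closer together. ENSDART00000132993.2 had 57.4, 61.7 and 62.9 scaled counts in control, 29.3, 17 and 16.6 at 60 nM and 77.8, 55.2 and 36.5 at 2.3 µM. ENSDART00000102712.4 was the most abundant of the 8 members with the largest differences. It had 1119.9, 1037 and 1030.0 scaled counts in control, 369, 404 and 590.5 at 60 nM and 1090.0, 1060.3 and 809.9 at 2.3 µM, and its acetochlor libraries, between 866 and 1189, lay above all 3 of the 60 nM libraries. ENSDART00000065670.6 had 381, 364 and 337 scaled counts in control, 173, 163 and 142 at 60 nM and 359.8, 349 and 332 at 2.3 µM. Its 60 nM mean was 44.2% of control, and the acetochlor libraries, at 269 to 329.6, lay between the 60 nM and the control values without touching either. ENSDART00000159385.2 had 77.7, 84.4 and 98.0 in control and 15.7, 40.9 and 57.5 at 60 nM. It was also low in acetochlor 780 nM replicates I and II, at 32 and 31.4, but not in replicate III, at 99.7. At acetochlor 7.8 µM it had 47.1, 42.4 and 67.3, below every control. All of these members had fractional estimates. ENSDART00000159385.2 was not called lower at 60 nM than in control (edgeR adjusted p = 0.118), whereas the others named in this paragraph were.

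**Figure D3:**
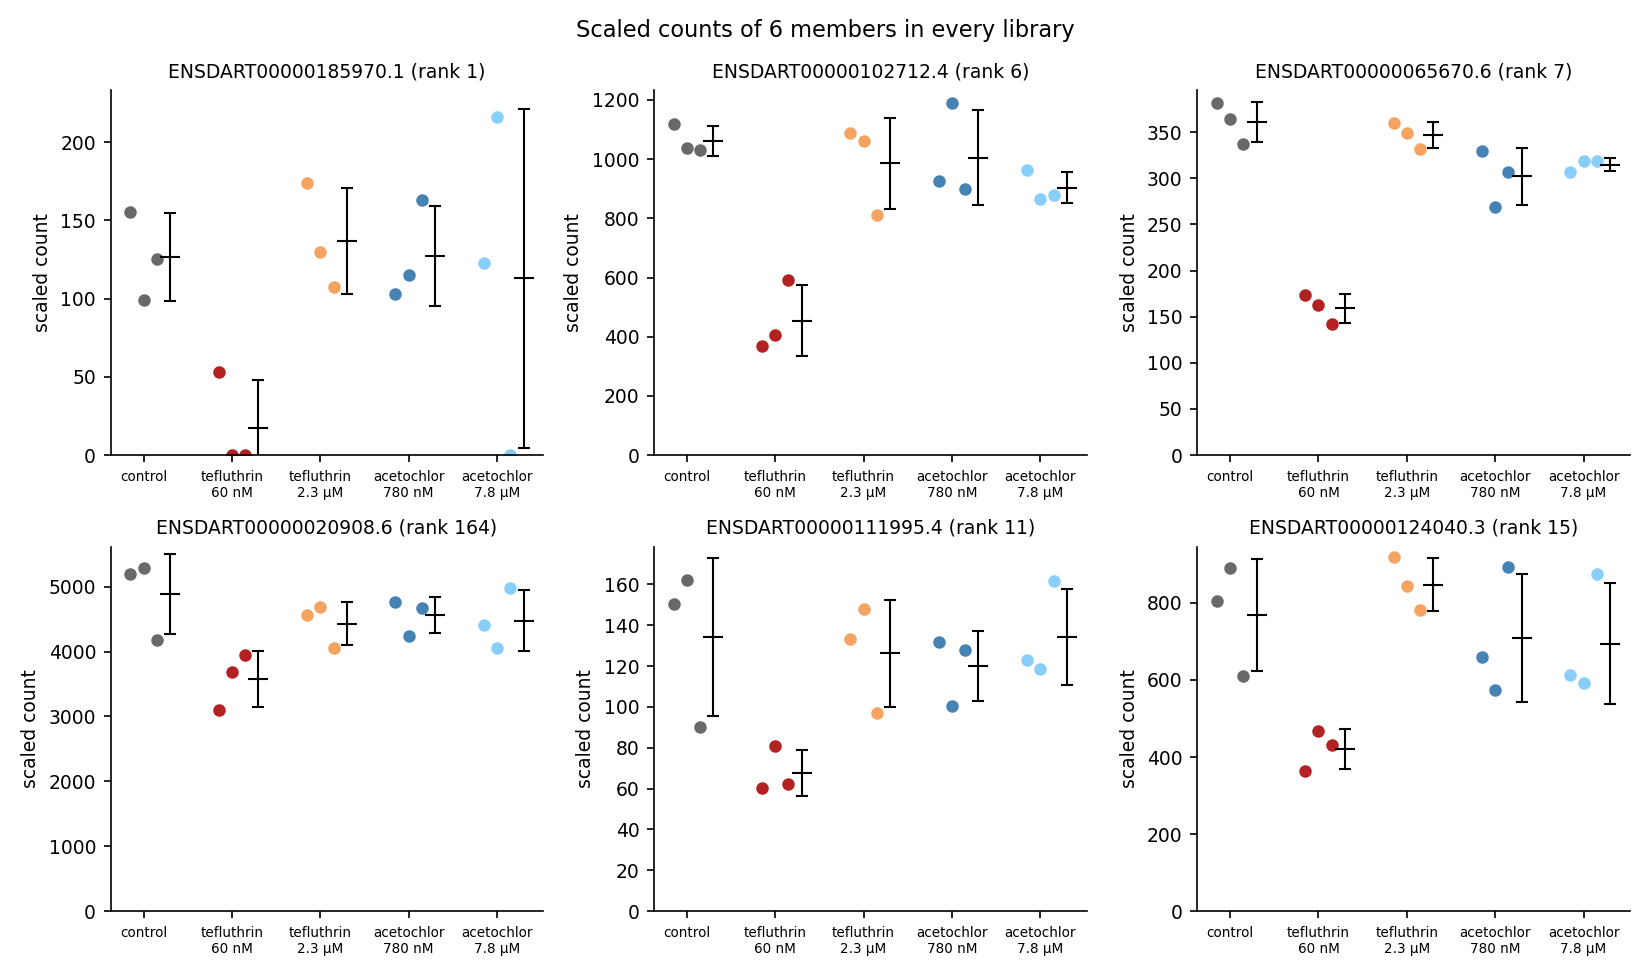
Scaled counts of 6 members in each library by group (points, replicates I to III from left to right), with the group mean and SD (n = 3) beside them; each y axis starts at 0. ENSDART00000185970.1 is at 0 in 2 libraries at 60 nM and in 1 at acetochlor 7.8 µM, whereas ENSDART00000065670.6 has 3 close values at 60 nM, between 142 and 173.

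Members with whole estimates in all 15 libraries are those where no read had to be divided, within a tolerance of 1e-06 counts. They numbered 66 of 200 (33%), against 25.5% of all transcripts in range. Their differences ran from 0.42 to 0.94 with a median of 0.50, and those of the 134 fractional members from 0.42 to 2.54 with a median of 0.54, so that every difference above 0.94 belonged to a fractional member. Whole members had a median control mean of 282 scaled counts and fractional members of 233.

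The whole member with the largest difference was ENSDART00000111995.4, at 150.4, 162 and 90.1 scaled counts in control, 60.2, 80.6 and 62.1 at 60 nM and 133, 148 and 97.2 at 2.3 µM. Control replicate III came close to the highest 60 nM library, and the other controls did not. ENSDART00000124040.3 had 805, 892 and 609.6 scaled counts in control, 364, 467 and 430.4 at 60 nM and 919, 844 and 781 at 2.3 µM. Its acetochlor libraries ran from 573 to 894, above every 60 nM library. ENSDART00000056005.5 had close values within control and both tefluthrin groups: 379, 373 and 319.7 in control, 215, 243 and 231 at 60 nM and 382, 338 and 349 at 2.3 µM, with 279 to 368 in the acetochlor libraries. The other 3 of the 6 whole members with the largest differences, ENSDART00000154457.2, ENSDART00000075179.6 and ENSDART00000073957.5, had control means of 203, 53.4 and 523 scaled counts and 60 nM means of 114, 30.1 and 325, which are 55.8%, 56.4% and 62.2% of control.

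The most abundant members had small differences. ENSDART00000020908.6 had the highest control mean, with 5189, 5289 and 4177 scaled counts in control, 3106, 3682 and 3951 at 60 nM and 4564, 4682 and 4048 at 2.3 µM. Its highest 60 nM library was just below the lowest library of the other tefluthrin group and of control. ENSDART00000105636.5 was the best separated of the 4 most abundant, with 3269, 3433 and 3285 in control, 2152, 2274 and 2706 at 60 nM and 3318, 3496 and 3255 at 2.3 µM. ENSDART00000157058.3 and ENSDART00000054340.7, with control means of 4124 and 3605 scaled counts, stood at 74.1% and 73.6% of control at 60 nM.

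Members were found at every level of expression. Transcripts in range were divided into 4 equal parts by control mean, and members made up 0.728%, 0.897%, 1.03% and 1.08% of them from the lowest to the highest part. The median difference was 0.55 in the lowest part and 0.50 to 0.52 in the others. The last members on the list, ENSDART00000005067.10 and ENSDART00000125616.4, had differences of 0.42, with 497, 521 and 486 scaled counts in control for the former and 358, 387 and 378 at 60 nM. The first transcripts left out, ENSDART00000141535.2 and ENSDART00000033713.5, had differences of 0.41. The cut at 200 therefore does not mark a step in the values.

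All 200 members passed the filter on low counts and entered the model across all transcripts, 1 edgeR quasi-likelihood fit to the 15 libraries with Benjamini-Hochberg adjustment over 35865 transcripts. At an adjusted p-value under 0.05 it called 142 members lower at 60 nM than in control, where 7.92% of all transcripts tested were called lower. It called 136 members higher at 2.3 µM than at 60 nM, against 9.08% of all transcripts. The rule used these groups, so that nothing is read from the shares. The remaining 58 of the 200 members were not called lower at 60 nM. Among the members called lower were 51 of 66 with whole and 91 of 134 with fractional estimates. The shares called among all whole and all fractional transcripts were not computed, so that the 2 kinds are not compared.

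These counts fell when any 1 library of the compared groups was left out, as did the counts over all transcripts. From 94 to 118 members were called lower at 60 nM than in control, where 3997 to 5294 transcripts were called in either direction. Without tefluthrin 60 nM replicate I there were 94, with 4129 transcripts called in either direction, against 5875 with all libraries. From 73 to 114 members were called higher at 2.3 µM than at 60 nM, where 4426 to 5858 transcripts were called in either direction. Without tefluthrin 60 nM replicate I there were 90, with 4807 transcripts called in either direction, against 6847 with all libraries. Without tefluthrin 2.3 µM replicate I there were 73 members, and 4426 transcripts in either direction. For these fits, the share of all transcripts called in the same direction as the members was not computed. Between 2.3 µM and control, edgeR, DESeq2 and limma voom called 0 of the 200 members, where edgeR called 29.8% of all transcripts. In edgeR, 2 members had an unadjusted p-value under 0.05, against 39.1% of all transcripts. The rule required both groups to be level, so that nothing is read from these counts. The median log2 fold change of the members in this comparison was -0.03. Under scaling by library totals alone it was -0.16. Then 15 members were called lower, and 11144 of all transcripts were called in either direction, against 10688 under the main scaling.

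The rule was also applied to 2 replicate numbers at a time, and the differences were read in the number left out. This gives 1 library per group and no test. The lists so chosen are not the 200 members, and the libraries left out belong to the same groups. A batch shared by the libraries of a group cannot be told apart from the exposure here either. No pairing of the pools by number is stated or was seen, and size factors came from all 15 libraries. Chosen without replicate I, 200 transcripts had a median 60 nM difference of -0.59 from control in the libraries that chose them and of -0.43 in the replicate I libraries. They were lower than control in replicate I in 167 of 200 cases (83.5%), against 52.5% of all transcripts in range. Chosen without replicate II, the median was -0.60 in the choosing libraries and -0.40 in replicate II, with 162 of 200 lower (81%, against 51.6%). Chosen without replicate III, it was -0.72 and -0.21, with 142 of 200 lower (71%, against 51.1%).

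The difference was smaller in each set of libraries left out than in those that chose the transcripts, and least in replicate III. A choice by the largest difference favours smaller values in other libraries, so that nothing is read from this. The 200 were also taken from more passing transcripts without replicate III, 474, than without replicates I and II, 280 and 285. A difference of at least 0.4 was met again by 106, 100 and 64 of the 200 in replicates I, II and III, which is 53%, 50% and 32%, against 20.7%, 20.5% and 16.7% of all transcripts in range. The difference at 2.3 µM was measured against the same 60 nM library. In the libraries left out, 2.3 µM stood above 60 nM by a median of 0.52, 0.37 and 0.35, in 163, 164 and 148 of 200 transcripts, where 50.6%, 50.3% and 49% of all transcripts were higher. The 60 nM library was below both the control and the 2.3 µM library in 147, 147 and 121 of 200, against 30.5%, 30.3% and 27.8% of all transcripts in range. The median difference between 2.3 µM and control in these libraries was 0.01, -0.06 and 0.03.

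**Figure D4:**
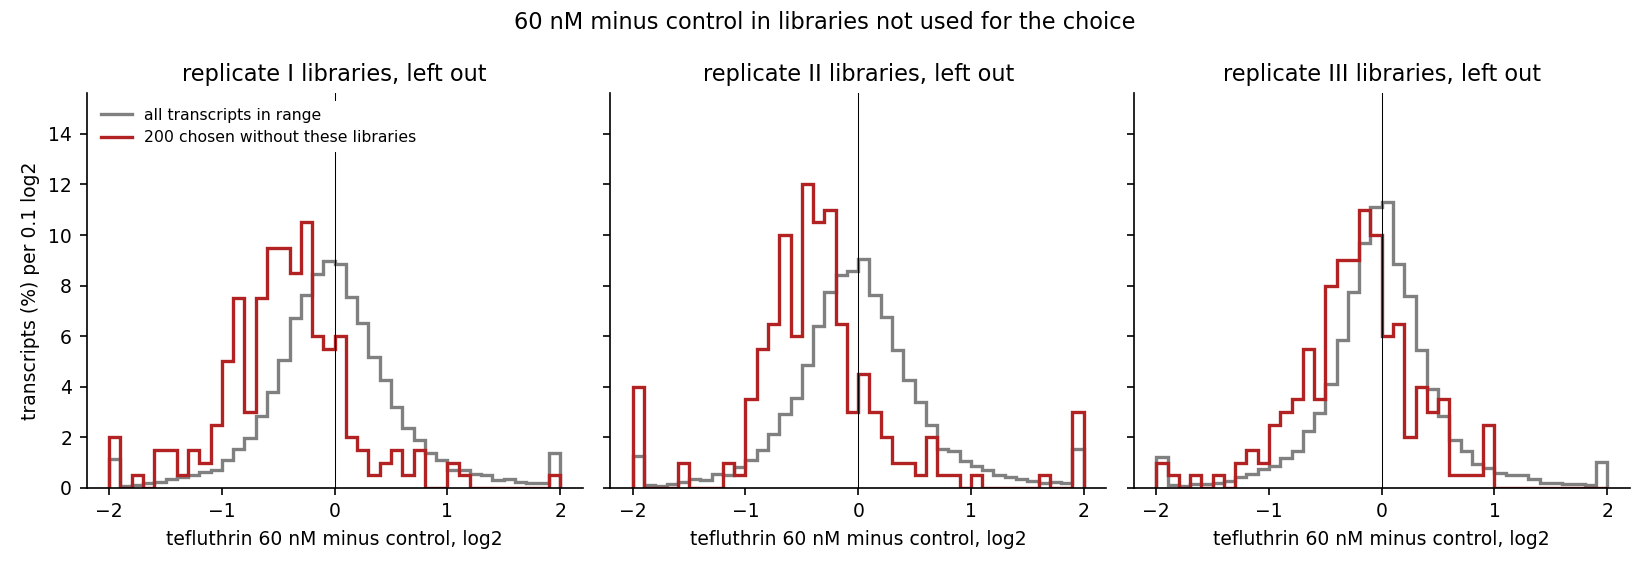
Each panel takes 200 transcripts chosen by the rule without 1 replicate number and shows their tefluthrin 60 nM minus control difference, log2(scaled count + 5), in the libraries of that number (red), beside all transcripts in range (grey), as the percentage per 0.1 log2; values beyond 2 are counted in the end bins. The red curves lie left of the grey, with medians of -0.43, -0.40 and -0.21 for replicates I, II and III.

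These lists overlapped only in part with the members. The choices without replicates I, II and III shared 81, 101 and 77 transcripts with the 200. With 2 libraries per group the rule passed 280, 285 and 474 transcripts. Among the chosen transcripts with whole estimates, 30 of 32, 49 of 51 and 35 of 40 were lower than control in the libraries left out. Their median differences there were -0.55, -0.37 and -0.18. The share over all transcripts in range with whole estimates was not computed.

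No criterion of the choice compared the acetochlor libraries, although they entered the size factors with the others. In 126 of 200 members (63%) every 60 nM library was below all 6 acetochlor libraries as well, so that the 60 nM libraries were the lowest of the 15. Among all transcripts in range, 13.8% had the 60 nM libraries below all acetochlor libraries and 3.53% below all 12 other libraries. Low 60 nM values chose the members, and nothing is read from this contrast. The count was 48 of 66 for members with whole estimates and 78 of 134 for fractional members, where 17.2% of whole and 12.7% of fractional transcripts in range had the 60 nM libraries below all acetochlor libraries.

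Against control, the median member lay slightly low in both acetochlor groups. The control libraries are shared with the choice, which required them to be high. All transcripts met no such demand, so that nothing is read from the members' values against control in this paragraph. At acetochlor 780 nM the median log2 fold change of the members was -0.05, where that of all transcripts tested was 0.0032. At 7.8 µM it was -0.13, against 0.0022. The median at 780 nM was -0.03 without control replicate II and also without acetochlor 780 nM replicate I, -0.07 without acetochlor 780 nM replicate III and -0.10 without control replicate III. Under scaling by library totals alone the median at 7.8 µM was -0.063. The sign was negative in 129 members (64.5%) at 780 nM, against 49.0% of all transcripts tested, and in 167 (83.5%) at 7.8 µM, against 49.3%. In 45 members every library at 7.8 µM was below every control, against 8.81% of transcripts in range, and in 14 every library at 780 nM was, against 3.46%. In edgeR, as in DESeq2 and limma voom, 0 members were called at either concentration, with 0% and 0.106% of all transcripts called by edgeR. At an unadjusted p-value under 0.05 there were 10 members at 780 nM, against 2.53% of all transcripts, and 26 at 7.8 µM, against 7.12%. The median member at acetochlor 7.8 µM lay at -0.13, -0.19 and -0.06 in the 3 libraries. The 60 nM libraries, at -0.58 to -0.50, were required to be low by the rule, so that nothing is read from the gap. The mean at 7.8 µM was at or below the 60 nM mean in 3 members, against 46.2% of transcripts in range. The mean at 780 nM was so in 1 member, against 46.1%. Low 60 nM values chose the members, so that nothing is read from these counts.

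The comparison of the acetochlor concentrations used no library that the criteria of the choice compared, although all 15 libraries set the size factors. edgeR's quasi-likelihood test called 0 of 200 members between acetochlor 7.8 µM and 780 nM, as did DESeq2 and limma voom, and 0.0669% of all transcripts were called by edgeR. At an unadjusted p-value under 0.05 there were 15 of 200 members, against 4.65% of all transcripts. Of these members 12 were lower at 7.8 µM, where 2.26% of all transcripts were, and 3 were higher. Every library at 7.8 µM was below every library at 780 nM in 17 members, against 4.06% of transcripts in range, and above every library in 2 members, against 3.76%. The direction was uneven: 153 of 200 members (76.5%) had a lower estimate at 7.8 µM, against 50.8% of all transcripts tested, and the median log2 fold change was -0.08 against -0.0036. The lower and upper quartiles of the members were -0.17 and -0.01. Members share libraries and are not replicates, and no p-value is given for the list.

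**Figure D5:**
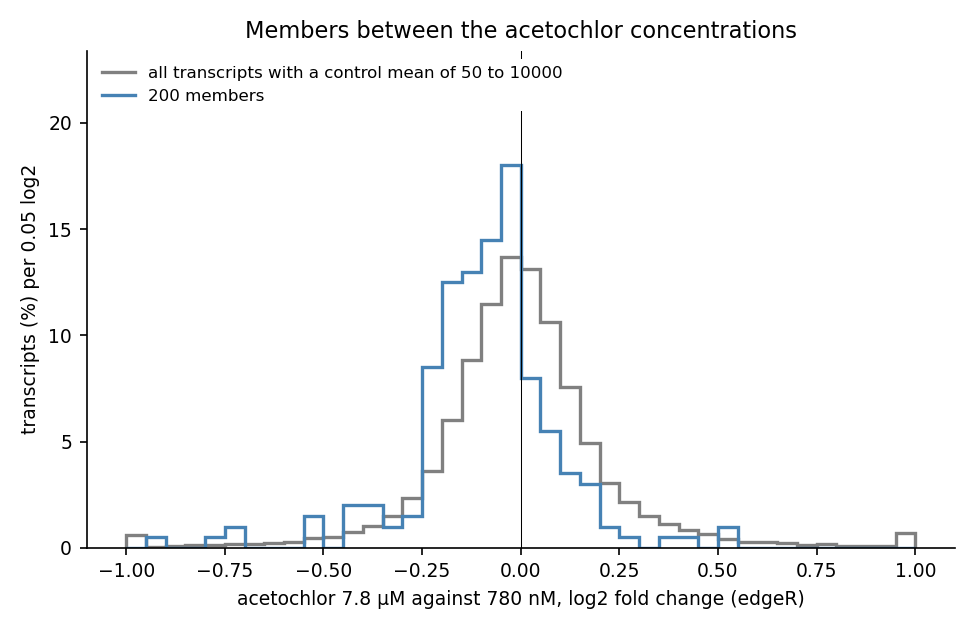
Log2 fold change between acetochlor 7.8 µM and 780 nM (edgeR) for the 200 members (blue) and all transcripts with a control mean of 50 to 10000 scaled counts (grey), as the percentage per 0.05 log2; values beyond 1 are counted in the end bins. The members are shifted to the left by less than 0.1, with a median of -0.08.

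The split was similar along the ranking by 60 nM difference, which was not tested. Among the members ranked 1 to 100, 78 were lower at 7.8 µM (median log2 fold change -0.08), and among those ranked 101 to 200, 75 (median -0.08). Of the whole members 50 of 66 were lower, and of the fractional members 103 of 134. Without acetochlor 780 nM replicate III the number of members lower at 7.8 µM was 116 of 200, and without acetochlor 7.8 µM replicate II it was 131, where 49.8% and 50.8% of all transcripts were lower. The members' median was then -0.05 and -0.06. Under scaling by library totals alone the number was 114 of 200, against 39.4% of all transcripts, and the median was -0.02 for the members and 0.05 for all transcripts.

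No single member was called between the acetochlor concentrations after adjustment over all transcripts tested. ENSDART00000126928.3 had 69.7, 117 and 99.4 scaled counts at acetochlor 780 nM and 63.2, 49 and 57.0 at 7.8 µM, and 33.6, 44.3 and 30.0 at tefluthrin 60 nM. Its log2 fold change between the acetochlor concentrations was -0.76 with an SE of 0.230, and every 7.8 µM library was lower than every library at 780 nM (edgeR adjusted p = 0.793). ENSDART00000084859.6 went the other way, with 389, 392 and 292 at 780 nM and 523, 583 and 415 at 7.8 µM, against 379, 336 and 394 in control and a mean of 190.2 ± 13.6 (SD, n = 3) at tefluthrin 60 nM. Its log2 fold change was 0.50 with an SE of 0.152, and every 7.8 µM library was higher than every library at 780 nM (edgeR adjusted p = 0.793). ENSDART00000067461.5, ENSDART00000181165.1, ENSDART00000169254.2 and ENSDART00000143442.2 completed the smallest p-values in each direction, with log2 fold changes of -0.42, -0.91, 0.43 and 0.39 and edgeR adjusted p-values of 0.845, 0.851, 0.983 and 1.

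The spread between replicates in the acetochlor groups was close to that of all transcripts in range. The median coefficient of variation of the members was 12.4% at 780 nM and 10.5% at 7.8 µM, against 13.1% and 10.7% for the latter. For whole members it was 11.1% and 7.69%, and for fractional members 12.8% and 11.2%. At tefluthrin 60 nM, where the members were chosen, it was 10.9% against 9.96%. The labels name no batch, clutch or sequencing date, so that a batch shared by the libraries at 60 nM and the exposure cannot be told apart.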

How the data were processed

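The deposited files give an estimated count for each Ensembl transcript in each library, which the authors did not normalise for depth. The submitters' processing notes name Salmon 1.6.0, FastQC, MultiQC and the build GRCz11; settings and annotation release are not given in the sources used here. Between 67.2% and 69.9% of estimates above 0 were fractional. Replicate pairs within groups differed by more than sampling noise (chi-square of 2.94 to 22.9 per degree of freedom, 15 pairs), so that each library counts once. Library totals bound precision, and floors cover counting error only.

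Median-of-ratios size factors (0.831 to 1.28) came from 29953 transcripts above 0 in all libraries. The control, tefluthrin 60 nM and tefluthrin 2.3 µM groups were defined by the treatment labels; the file headers of the last group read nanomolar. Estimates were rounded for edgeR 4.0.16 (filterByExpr, TMM, quasi-likelihood, all 15 libraries, two-sided, called at an adjusted p-value under 0.05). limma 3.58.1, DESeq2 1.42.0, R 4.3.3, Python 3.11.15 and matplotlib 3.10.9 were used. Scripts were tested on simulated counts in which some transcripts were lowered at 60 nM and no others changed. There edgeR called 12 of 100 transcripts with a log2 fold change of -0.5 and 40 of 100 with -1. It called 53 of 33580 simulated transcripts in all, against 5875 in the data at 60 nM against control. The adjusted p-value depends on how many transcripts change, so that these shares do not carry over to the tefluthrin comparisons. A transcript that was not called can have changed, but how often was not measured for these data.

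Transcripts were named by a rule: the 8 with the largest differences, the 4 most abundant, the 6 largest with whole estimates, 3 per direction with the smallest p between the acetochlor concentrations, and 2 on each side of the cut at 200. Members and lists were chosen with earlier results of these data known. Planned gene lists and cell type markers were not used, since identifiers did not match genes.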

Additional observations from a re-analysis of the deposited data

How the results depend on the processing

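Counts and medians were recomputed with other scalings, tests and filters, with the replicate number as a block, and without each library in turn; all alternatives were planned. The numbers of transcripts called below are in either direction. Library totals as the only scaling gave 133 transcripts meeting the rule. It gave 66 members called higher at 2.3 µM than at 60 nM (median 0.39), where 7547 of all transcripts were called. Between 2.3 µM and control it gave 15 members called lower, with a median of -0.16, where 11144 of all transcripts were called. At acetochlor 7.8 µM against control the median was -0.063, and 75 transcripts were called. A log2 fold change of at least 1 left 4 members and 1696 transcripts at 60 nM against control, 5 members and 1567 transcripts between the tefluthrin concentrations, 3468 at 2.3 µM and 21 at acetochlor 7.8 µM against control. DESeq2 called 103 transcripts at acetochlor 780 nM, 436 at 7.8 µM and 214 between them. The whole members had a median of 0.48 between the tefluthrin concentrations.

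With the replicate block, 24 transcripts were called at acetochlor 7.8 µM against control and 12 between the acetochlor concentrations. Same-numbered libraries correlated between -0.068 and 0.023 in their deviations from group means. No pairing by number was seen, but these values cannot exclude a weak one. Without 1 replicate number the rule was met by 280 to 474 transcripts. Leaving out 1 library gave 94 to 118 members called lower at 60 nM than in control (3997 to 5294 transcripts). It gave 73 to 114 called higher at 2.3 µM than at 60 nM (4426 to 5858 transcripts). For 2.3 µM against control it gave a median between -0.046 and 0.00036, positive without 2.3 µM replicate III. It gave 0 to 3 transcripts at acetochlor 780 nM, 15 to 110 at 7.8 µM against control and 9 to 66 between the acetochlor concentrations.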
